A study of Mus musculus with 24 samples.

Results

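In all, 10 genes of the response to low oxygen were followed through HL-1 cells in which the ubiquitin ligase MuRF1 was knocked down and which were stretched cyclically or not. They were chosen by name, with earlier results of these data known, so their counts may partly reflect that choice. They include Hif1a and Epas1, the oxygen-regulated transcription factor subunits, and Egln1 and Egln3, enzymes that sense oxygen. The others are the HIF targets Bnip3, Adm, Ndrg1, Ankrd37, P4ha1 and Car9, none of which is an enzyme of glycolysis. All 10 were found among the 20351 protein-coding genes of the count table, and all 10 were among the 14411 genes that passed the filter on low counts. With MuRF1 knockdown 8 of the 10 genes fell in unstretched cells, by 11.7% to 33.9% of the control mean, and 6 of the 10 fell in stretched cells, by 11.9% to 25.6%. The knockdown moved much of the transcriptome, and 29.7% and 26.9% of all tested genes fell in these comparisons. Of 36 other non-glycolytic HIF targets tested, 41.7% and 38.9% fell and 27.8% and 25% rose. Among 20 glycolytic HIF targets 85% fell and 5% rose in both states. Stretch for 60 min moved few of the 10 genes: Adm rose in knockdown cells, and Epas1 fell in control cells in a call that depended on the settings.

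HL-1 is a mouse cell line derived from atrial cardiomyocytes. All cells received an adenovirus at a multiplicity of infection of 30, 48 h before the stretch, and were moved to serum-free medium. The virus carried a hairpin against MuRF1, the product of Trim63 (labelled Adsh_MuRF1), or a scrambled hairpin (Adsh_scrambled). Each of the 4 groups had 6 libraries: control without stretch, control with 15% stretch at 1 Hz for 60 min, MuRF1 KD without stretch and MuRF1 KD with that stretch. The geometry of the stretch is given as uniaxial by the treatment protocol and as biaxial by the treatment tag. There is no group without virus among these samples, the knockdown is transient, and no label gives an oxygen level or a low-oxygen treatment. Whether replicates were separate cultures is not stated, so p-values measure the spread between these libraries, which may be technical.

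In well-oxygenated cells, prolyl hydroxylases of the Egln family mark the HIF alpha subunits, the VHL ubiquitin ligase binds the marked protein, and the proteasome degrades it. In low oxygen the alpha subunits persist, pair with Arnt and switch on genes for glycolysis, vessel growth, acid handling, removal of mitochondria and matrix assembly. Egln1 and Egln3 are themselves HIF targets, which forms a feedback loop. The control acts mainly on the protein, so the mRNA level of Hif1a or Epas1 does not measure HIF activity. HIF binds DNA at a short core, ACGTG or GCGTG, within longer hypoxia response elements.

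Promoters of members that moved in these data are shown for that core. RefSeq promoter windows on GRCm38.p6 were matched for 8 of the 10 members, all but Epas1 and Ndrg1. The 250 bases before the start are printed 5′ to 3′ on the gene's strand for Egln3 and P4ha1, which fell most with the knockdown, for Bnip3, which holds the most cores, and for Adm, which rose with stretch in knockdown cells. Capitals mark ACGTG or GCGTG on either strand (the other strand reads CACGT or CACGC), and overlapping matches were counted once.

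Egln3, chr12:54203875-54204124, minus strand: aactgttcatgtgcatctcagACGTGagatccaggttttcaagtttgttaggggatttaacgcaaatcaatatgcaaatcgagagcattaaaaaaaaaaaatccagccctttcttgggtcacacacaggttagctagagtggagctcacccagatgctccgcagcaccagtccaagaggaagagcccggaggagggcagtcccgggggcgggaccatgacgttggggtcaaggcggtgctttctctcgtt

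P4ha1, chr10:59323046-59323295, plus strand: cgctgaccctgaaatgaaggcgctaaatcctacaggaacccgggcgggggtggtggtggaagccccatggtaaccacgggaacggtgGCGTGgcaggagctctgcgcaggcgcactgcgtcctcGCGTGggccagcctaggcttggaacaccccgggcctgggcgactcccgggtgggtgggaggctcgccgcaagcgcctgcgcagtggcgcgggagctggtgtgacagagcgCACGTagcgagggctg

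Bnip3, chr7:138909507-138909756, minus strand: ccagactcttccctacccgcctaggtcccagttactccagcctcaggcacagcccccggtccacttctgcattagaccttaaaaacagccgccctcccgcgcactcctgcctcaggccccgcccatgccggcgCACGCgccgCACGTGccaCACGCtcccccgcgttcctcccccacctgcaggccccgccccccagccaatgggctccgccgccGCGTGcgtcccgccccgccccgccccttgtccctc

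Adm, chr7:110627407-110627656, plus strand: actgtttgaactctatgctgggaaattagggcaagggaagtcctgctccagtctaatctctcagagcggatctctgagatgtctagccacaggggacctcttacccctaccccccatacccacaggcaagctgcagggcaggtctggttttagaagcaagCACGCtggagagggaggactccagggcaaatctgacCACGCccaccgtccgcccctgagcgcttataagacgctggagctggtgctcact

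Egln3 held 1 core, with its first base at position -229 from the start. P4ha1 held 3, at -163, -126 and -16. Bnip3 held 4, at -117, -108, -99 and -35, and 1 of them lies in CACGTG, an E-box that many other factors bind. Adm held 2, at -90 and -54. Windows of Hif1a (2 cores, 1 in CACGTG), Egln1 (2), Ankrd37 (3) and Car9 (1) held it too, so that it was found in 8 of 8 matched windows. It was also found in 38.6% of all 32851 windows of this length, with 3 or more in 4.68% and CACGTG in 6.02%. The windows of Hif1a (chr12:73907617-73907866) and Ankrd37 (chr8:45999851-46000100) lie inside the GENCODE gene spans given below and not before them. Those of Egln1, Bnip3 and Car9 overlap their gene spans in part. These matches describe letters in a window and do not show binding.

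Libraries held 23564268 to 54755203 estimated counts. The lowest total was that of stretched control replicate 5, and the next lowest was 37705431 estimated counts. Stretched control replicate 5 also had a mitochondrial share of 1.45% of counts against 2.49% to 3.67% in the others, and values without it are given where they change a call. Trim63, the targeted gene, stood at 55.7 ± 1.17 CPM (counts scaled to a common library total with TMM factors) in unstretched knockdown and 639.7 ± 68.1 CPM in unstretched control libraries (SD, n = 6 each; two-sided exact permutation p = 0.00216, the smallest that 924 divisions allow). With stretch it stood at 68.5 ± 7.91 against 781 ± 81.7 CPM (SD, n = 6 each; same exact p). Of 10 cardiomyocyte markers 9 averaged above 1 CPM in unstretched control cells, among them Tnnt2 at 1249.8 CPM and Ryr2 at 270.5 CPM, while the atrial peptide gene Nppa did not exceed 0.858 CPM in any library. Each library code carries a letter, a for replicates 1 to 3 and b for replicates 4 to 6, whose meaning the labels do not give. The code also holds a number of unstated meaning that is confounded with the group, so its effect cannot be separated from that of the group.

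Per kilobase of the principal transcript in GENCODE vM21, Hif1a was the most abundant of the 10 genes in unstretched control cells, at 60.3 ± 2.85 CPM per kb (SD, n = 6). P4ha1 (36.4), Egln1 (30.4), Ndrg1 (22.2), Bnip3 (19.5), Egln3 (15.0), Adm (11.6) and Epas1 (7.44) followed, as mean CPM per kb. Car9 (2.24 ± 0.541 CPM per kb) and Ankrd37 (2.19 ± 0.670 CPM per kb) came last and did not differ beyond their spread (SD, n = 6 each). The authors' counting need not have used these lengths. Within groups Egln1 and P4ha1 varied least, with coefficients of variation of 1.46% to 3.06% and 1.11% to 5.25%. Ankrd37, with 45.8 to 134 estimated counts per library, varied by 16.0% to 30.6%, and Car9 by 8.39% to 24.2%, so a change of given size was harder to detect in these genes.

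**Figure D1:**
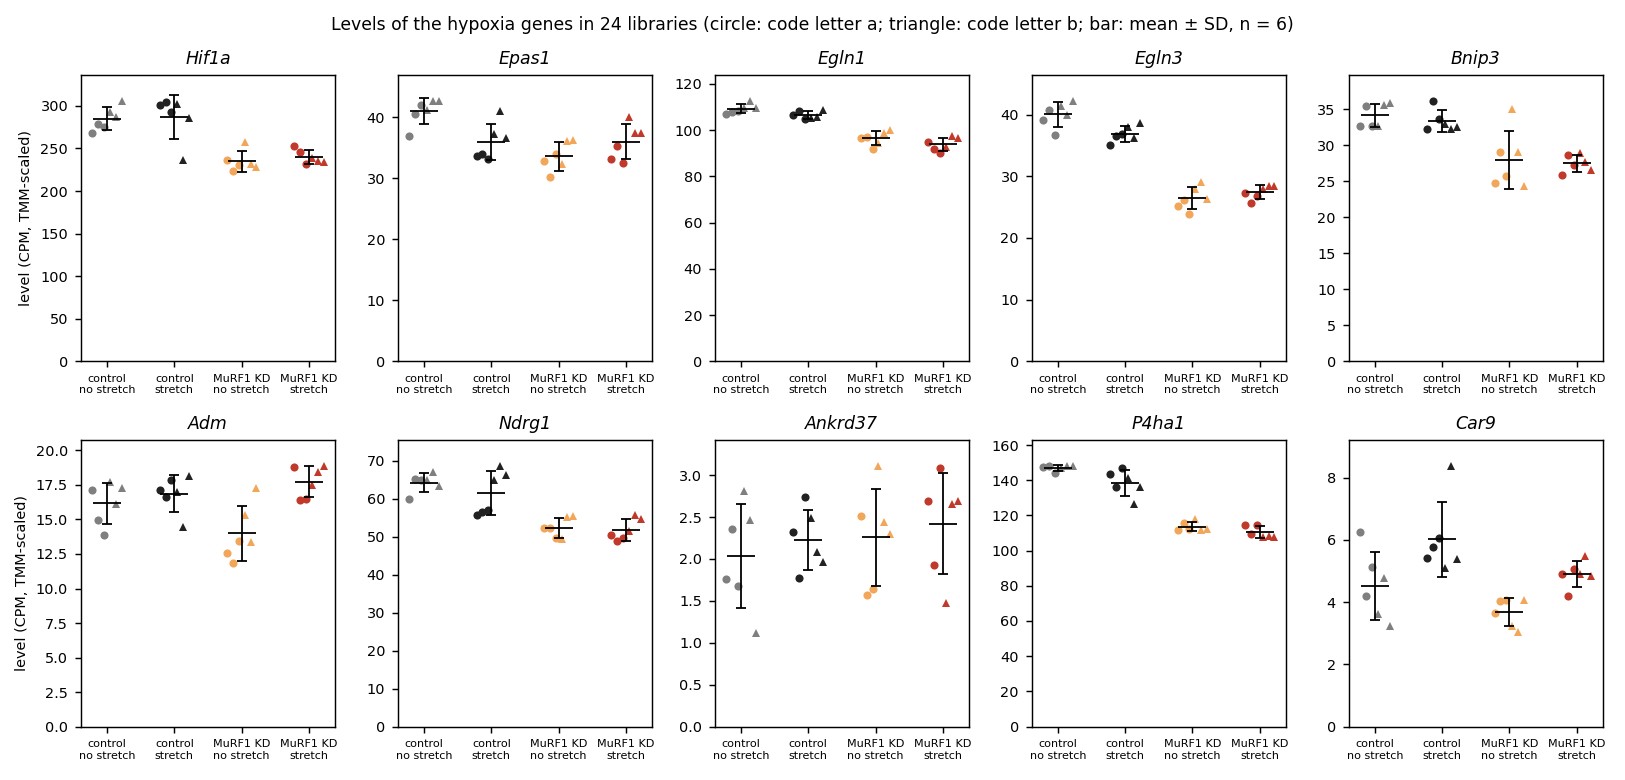
Level of each of the 10 hypoxia genes in CPM (y axis, from 0) in the 24 libraries by group (x axis), with circles for code letter a, triangles for code letter b, and the mean ± SD (n = 6) in black. Egln1, Egln3 and P4ha1 are lower in every knockdown library than in every control library of the same stretch state, while Ankrd37 overlaps throughout.

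The first question was how MuRF1 knockdown changed the hypoxia genes in unstretched cells. Of the 10 members 8 fell and 0 rose by edgeR's quasi-likelihood test with Benjamini-Hochberg adjustment over all genes, the source of every adjusted p given here unless another tool is named. No member was higher at an unadjusted p under 0.05, and DESeq2 and limma-voom called none higher. Over all genes tested, 29.7% fell and 28.0% rose in this comparison. The median log2 fold change was -0.29 over the members and 0.0087 over all genes tested. All 8 had the same sign among libraries of code letter a and among those of letter b.

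Both alpha subunits fell. Hif1a (chromosome 12, 73901375 to 73947530, plus strand, ENSMUSG00000021109) encodes HIF-1 alpha. It ranged over 269 to 306 CPM (median 283) in unstretched control and 224 to 258 CPM (median 231) in unstretched knockdown libraries. The groups did not overlap, and the mean was 17.6% lower (log2 fold change -0.28, SE 0.0472, adjusted p = 1.17e-05). In bulk RNA fewer cells of a kind and less RNA per cell cannot be told apart. Epas1 (chromosome 17, 86753700 to 86833410, plus strand, ENSMUSG00000024140) encodes HIF-2 alpha. Its libraries spanned 36.9 to 42.8 CPM (median 41.6) in control and 30.3 to 36.3 CPM (median 33.4) in knockdown cells. All 6 knockdown libraries lay below all 6 control libraries (log2 fold change -0.29, SE 0.0561, adjusted p = 8.54e-05).

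Of the oxygen-sensing enzymes, Egln3 changed most, as it did among all 10 genes. Egln3 (chromosome 12, 54178981 to 54203860, minus strand, ENSMUSG00000035105) encodes PHD3, a hydroxylase that HIF induces. Control libraries spanned 36.7 to 42.3 CPM (median 40.4) and knockdown libraries 23.9 to 29.1 CPM (median 26.3). The groups were well apart, and the mean was 33.9% lower (log2 fold change -0.60, SE 0.0424, adjusted p = 1.72e-12). Egln1 (chromosome 8, 124908587 to 124949324, minus strand, ENSMUSG00000031987) encodes PHD2, the main hydroxylase of HIF-1 alpha in most cells. It spanned 107 to 113 CPM (median 109) in control and 91.9 to 100.01 CPM (median 96.8) in knockdown libraries. This fall of 11.7% was the smallest of the 8, again without overlap (log2 fold change -0.18, SE 0.0245, adjusted p = 4.94e-07).

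Among the targets, P4ha1 fell most. P4ha1 (chromosome 10, 59323296 to 59373304, plus strand, ENSMUSG00000019916) encodes a catalytic subunit of the prolyl 4-hydroxylase that collagen folding needs. Its control libraries lay within 144 to 148 CPM (median 148) and its knockdown libraries within 112 to 118 CPM (median 112). The groups were tight and separate (log2 fold change -0.37, SE 0.0292, adjusted p = 1.54e-11). Ndrg1 (chromosome 15, 66929318 to 66969640, minus strand, ENSMUSG00000005125), a stress-induced gene, spanned 60.0 to 67.1 CPM (median 64.98) in control and 49.3 to 55.3 CPM (median 52.2) in knockdown libraries. It fell without overlap (log2 fold change -0.30, SE 0.0487, adjusted p = 8.13e-06).

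Bnip3 (chromosome 7, 138890836 to 138909519, minus strand, ENSMUSG00000078566) encodes a mitochondrial protein that promotes mitophagy, the removal of mitochondria. It spanned 32.7 to 35.8 CPM (median 34.1) in control and 24.4 to 35.0 CPM (median 27.4) in knockdown libraries. Knockdown replicate 4 lay among the control libraries, and the other 5 lay below them (log2 fold change -0.29, SE 0.0614, adjusted p = 0.000244). Adm (chromosome 7, 110627661 to 110629820, plus strand, ENSMUSG00000030790) encodes adrenomedullin, a secreted peptide that widens vessels. It spanned 13.9 to 17.7 CPM (median 16.6) in control and 11.9 to 17.3 CPM (median 13.4) in knockdown libraries, so that the groups overlapped. Its fall (log2 fold change -0.22, SE 0.0755, adjusted p = 0.0166) did not pass without unstretched knockdown replicate 2 (-0.17, adjusted p = 0.0553) or with no filter on low counts (-0.18, adjusted p = 0.0533).

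Car9 and Ankrd37 did not pass. Car9 (chromosome 4, 43506966 to 43513729, plus strand, ENSMUSG00000028463) encodes carbonic anhydrase 9, a surface enzyme that helps cells handle acid. Its means were 3.68 ± 0.452 CPM in knockdown and 4.53 ± 1.09 CPM in control libraries (SD, n = 6 each; edgeR log2 fold change -0.30, SE 0.133, adjusted p = 0.0527). It passed in 6 of the 24 fits that left out 1 library, namely unstretched control replicate 4 or 6, stretched control replicate 5, or unstretched knockdown replicate 2, 3 or 6, at adjusted p of 0.0126 to 0.0491. Ankrd37 (chromosome 8, 45996902 to 46005707, minus strand, ENSMUSG00000050914), an ankyrin repeat gene known as a HIF-1 target, stood at 2.26 ± 0.580 against 2.03 ± 0.621 CPM (SD, n = 6 each; edgeR log2 fold change 0.15, SE 0.199, adjusted p = 0.554).

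Stretched cells were compared in the same way, with other libraries on both sides. Here 6 of the 10 members fell with the knockdown and 0 rose, against 26.9% of all genes that fell and 25.1% that rose. The median log2 fold change was -0.25 over the members and 0.0025 over all genes tested. DESeq2 and limma-voom called the same 6 genes, and no member was higher at an unadjusted p under 0.05. The 6 were Hif1a, Egln1, Egln3, Bnip3, Ndrg1 and P4ha1, and each had also fallen without stretch.

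Egln3 ranged over 35.1 to 38.6 CPM (median 36.7) in stretched control and 25.6 to 28.5 CPM (median 27.6) in stretched knockdown libraries. It again fell most of the members, without overlap (log2 fold change -0.43, SE 0.0425, adjusted p = 1.98e-09). P4ha1 spanned 127 to 147 CPM (median 139) against 108 to 115 CPM (median 109), also apart (log2 fold change -0.33, SE 0.0293, adjusted p = 2.47e-10). Hif1a spanned 236 to 305 CPM (median 297) against 232 to 253 CPM (median 237). Its groups overlapped through stretched control replicate 5 alone, at 236 CPM (log2 fold change -0.26, SE 0.0472, adjusted p = 3.98e-05).

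Ndrg1 spanned 55.6 to 68.7 CPM (median 61.0) in stretched control and 48.9 to 55.8 CPM (median 50.9) in stretched knockdown libraries, which overlapped at the edge (log2 fold change -0.25, SE 0.0489, adjusted p = 0.000113). Egln1 spanned 105 to 109 CPM (median 106) against 90.2 to 97.3 CPM (median 93.7) and fell without overlap (log2 fold change -0.18, SE 0.0246, adjusted p = 4.49e-07). Bnip3 spanned 32.2 to 36.2 CPM (median 32.8) against 25.9 to 28.9 CPM (median 27.4), here with no overlap either (log2 fold change -0.28, SE 0.0617, adjusted p = 0.000412). In contrast to the unstretched state, Epas1 and Adm did not pass. Epas1 stood at 35.98 ± 2.88 CPM with the hairpin and 35.98 ± 3.00 CPM with the scrambled one (SD, n = 6 each; edgeR log2 fold change 0.0038, SE 0.0564, adjusted p = 0.963). Adm stood at 17.7 ± 1.12 and 16.9 ± 1.32 CPM (SD, n = 6 each; edgeR log2 fold change 0.067, SE 0.0745, adjusted p = 0.474). Ankrd37 did not pass either (log2 fold change 0.11, SE 0.197, adjusted p = 0.669). Car9, at 4.90 ± 0.411 against 6.02 ± 1.21 CPM (SD, n = 6 each; edgeR log2 fold change -0.28, SE 0.129, adjusted p = 0.0685), passed only without unstretched control replicate 1 or 6 or stretched control replicate 4 among the fits that left out 1 library, at adjusted p of 0.0403 to 0.0488.

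**Figure D2:**
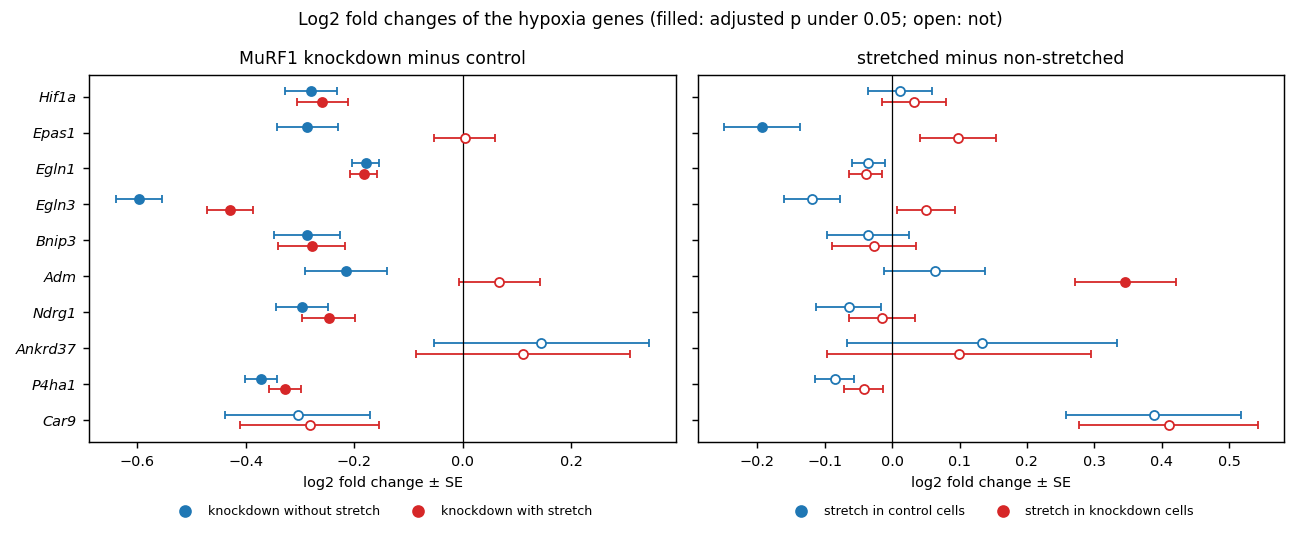
Log2 fold change ± SE (x axis) of the 10 genes (y axis) for MuRF1 knockdown against control (left) and for stretch against no stretch (right), with filled points for an adjusted p under 0.05. On the left 8 genes without and 6 with stretch are filled, all below 0, and on the right only Epas1 in control cells and Adm in knockdown cells are filled.

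Marker lists moved with the knockdown as well. In unstretched control and knockdown libraries the summed level of 10 cardiomyocyte markers was 2077 to 2334 and 990.3 to 1076 CPM. Of the 10, 8 fell and 1 rose, against 29.7% and 28.0% of all genes. Nkx2-5 was the marker that rose, from a mean of 74.4 to 88.7 CPM, and did so in stretched cells too, from 78.9 to 93.2 CPM. Tnnt2 made up 1249.8 of the mean sum of 2234.1 CPM in unstretched control and 512.9 of 1030.5 CPM in unstretched knockdown libraries. The sum of 6 smooth muscle markers was 2569 to 2778 and 1733 to 1882 CPM, and 4 fell. For 8 fibroblast markers it was 154 to 162 and 56.7 to 69.9 CPM, and 4 of 5 tested fell, with Tcf21 at no more than 0.0409, Thy1 at no more than 0.0697 and Lum at no more than 0.109 CPM in any library. For 8 endothelial markers it was 33.4 to 37.0 and 24.2 to 26.7 CPM, and 2 of 4 tested fell, with Cdh5 at no more than 0.0926 and Tie1 at no more than 0.202 CPM. For 7 macrophage markers it was 1.68 to 2.28 and 2.38 to 3.26 CPM, and 2 of 3 tested rose, with Adgre1 at no more than 0.0273 CPM. In stretched control and knockdown libraries the sums were 2022 to 2468 and 1135 to 1195 CPM for cardiomyocyte, 2570.1 to 2887 and 1857 to 1945 CPM for smooth muscle, and 132 to 154 and 66.7 to 70.8 CPM for fibroblast markers. They were 32.0 to 36.7 and 22.9 to 26.0 CPM for endothelial and 2.42 to 3.80 and 3.11 to 4.17 CPM for macrophage markers. The part of these shifts in the fall of the hypoxia genes was not tested.

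Other genes of the pathway were counted in the same way. Of 17 HIF partners and parts of the oxygen-sensing machinery 16 were tested, all but Hif3a. Without stretch 3 rose and 6 fell (median log2 fold change -0.021), and with stretch 3 rose and 5 fell (median -0.023). These are 18.8% and 37.5% without stretch and 18.8% and 31.2% with it, against 28.0% and 29.7%, and 25.1% and 26.9%, of all genes. Cited2, which competes with HIF for its coactivators, fell from a mean of 84.2 to 43.6 CPM without stretch (log2 fold change -0.95, SE 0.0601, adjusted p = 2.17e-13) and from 82.9 to 49.1 CPM with stretch (-0.76, SE 0.0598, adjusted p = 2.80e-11). Siah2, a ubiquitin ligase that targets Egln enzymes, fell by 0.33 and 0.31 on the log2 scale (SE 0.0326 and 0.0325). Arnt2, a relative of the HIF partner Arnt, fell from 2.61 to 1.32 CPM without stretch (-0.98, SE 0.130, adjusted p = 2.88e-07) and from 2.88 to 1.28 CPM with it (-1.16, SE 0.130, adjusted p = 1.85e-08). Rises were small. Vhl, which recognises hydroxylated HIF, rose without stretch (0.11, SE 0.0331, adjusted p = 0.00791) and did not pass with it (0.051, SE 0.0332, adjusted p = 0.207). Its partner Elob likewise rose without stretch (0.14, SE 0.0617, adjusted p = 0.0483) and did not pass with it (0.092, SE 0.0618, adjusted p = 0.221). P4htm, a transmembrane prolyl hydroxylase, rose with stretch (0.27, SE 0.0745, adjusted p = 0.00383) and did not pass without it (0.15, SE 0.0730, adjusted p = 0.0846). The coactivator gene Ep300 fell without stretch (-0.079, SE 0.0289, adjusted p = 0.0219) and rose with it (0.082, SE 0.0290, adjusted p = 0.0189). The difference between these effects did not pass (interaction 0.16, SE 0.0409, adjusted p = 0.125). Siah1b rose by 0.14 in both states (SE 0.0406 and 0.0403), an uncertain value because Siah1a is a close copy.

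A further list of 40 non-glycolytic HIF targets, of which 36 were tested, held genes of both directions, as all genes did. Without stretch 10 rose and 15 fell (median log2 fold change -0.032), and with stretch 9 rose and 14 fell (median -0.039). The shares that rose, 27.8% and 25.0%, were at the level of all genes. Those that fell, 41.7% and 38.9%, were above the 29.7% and 26.9% of all genes. Loxl2, a collagen cross-linking enzyme, fell by 0.89 (SE 0.0424, adjusted p = 2.87e-16) without and by 0.83 with stretch (SE 0.0424, adjusted p = 2.18e-15). The chemokine gene Cxcl12 fell from 57.0 to 26.8 CPM without and from 60.5 to 28.5 CPM with stretch (log2 fold change -1.09 in both). The growth factor gene Pdgfb fell by 0.71 and 0.54 (SE 0.0460 and 0.0462). In the other direction Rora, a nuclear receptor, rose by 0.67 in both states (SE 0.0589 and 0.0595), and Kdm5b, a histone demethylase, by 0.40 and 0.53 (SE 0.0473 and 0.0478). Ak4, a mitochondrial adenylate kinase, rose by 0.53 and 0.62 (SE 0.0676 and 0.0695), and Wsb1 by 0.26 and 0.36 (SE 0.0389 and 0.0386).

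Most glycolytic HIF targets fell. Of 20 genes 17 fell and 1 rose without stretch, and 17 fell and 1 rose with it, with median log2 fold changes of -0.40 and -0.35. In both states 85% fell and 5% rose. Over all genes 29.7% fell and 28.0% rose without stretch, and 26.9% fell and 25.1% rose with it. Hk1, a hexokinase, fell from 171 to 103 CPM without stretch (log2 fold change -0.73, SE 0.0278, adjusted p = 3.14e-18) and from 155 to 107 CPM with it (-0.54, SE 0.0278, adjusted p = 2.14e-15). Aldoc, an aldolase, fell in both states (log2 fold changes -1.47 and -1.185, SE 0.0620 and 0.0615). Gpi1, glucose-6-phosphate isomerase, had log2 fold changes of -0.72 and -0.58 (SE 0.0340 and 0.0340), and Ldha, lactate dehydrogenase A, of -0.57 and -0.52 (SE 0.0291 and 0.0291), all past the threshold. Slc2a3, a glucose transporter, was the gene that rose, by 0.24 (SE 0.0687, adjusted p = 0.00437) and 0.17 (SE 0.0697, adjusted p = 0.0438).

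**Figure D3:**
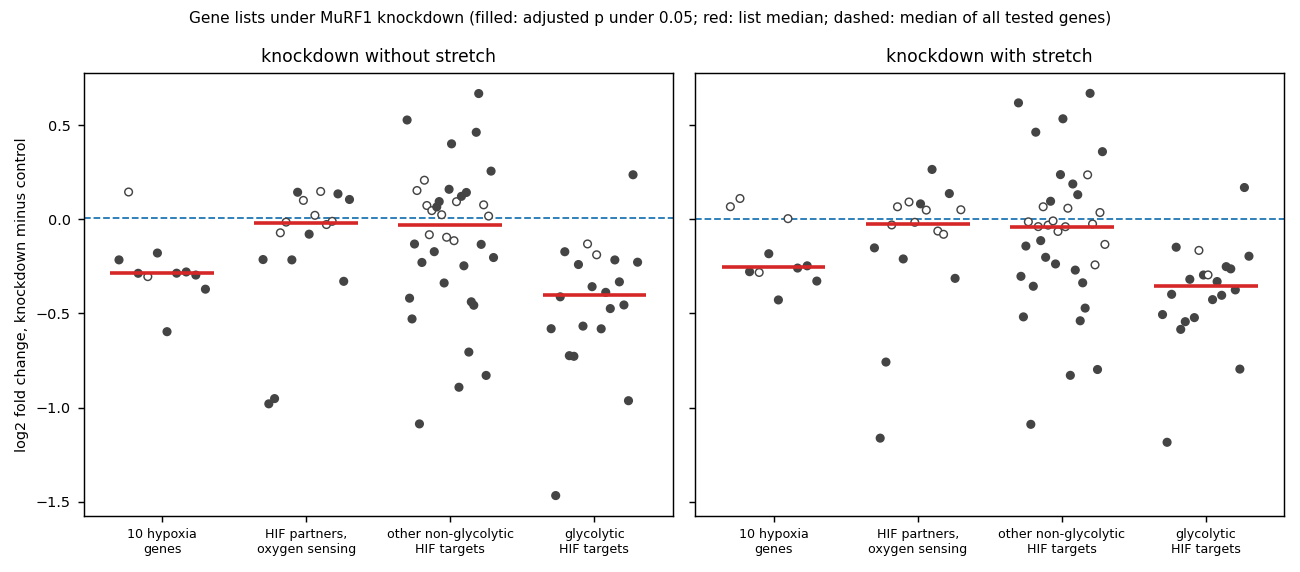
Log2 fold change of knockdown against control (y axis) for every tested gene of 4 lists (x axis), without stretch (left) and with stretch (right), with filled points for an adjusted p under 0.05, red bars for list medians and a dashed line for the median of all tested genes. The 10 hypoxia genes (medians -0.29 and -0.25) and the glycolytic targets (medians -0.40 and -0.35) lie mostly below 0, while the other lists spread to both sides of it.

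The second question was what 60 min of stretch did in control cells. Of the 10 members 1 fell and 0 rose, against 3.39% of all genes that fell and 2.55% that rose. At an unadjusted p under 0.05 there were 4 members, against 21.5% of all genes. Epas1 ranged over 36.9 to 42.8 CPM (median 41.6) without and 33.2 to 41.1 CPM (median 35.4) with stretch. The groups overlapped, and the mean fell by 12.3% (log2 fold change -0.19, SE 0.0562, adjusted p = 0.0398). The call was lost in 10 of the 24 fits without 1 library, at adjusted p of 0.0577 to 0.101: without unstretched control replicate 2, 3, 4, 5 or 6, stretched control replicate 1, 2 or 3, unstretched knockdown replicate 4 or stretched knockdown replicate 1. Within code letters a and b the log2 ratios of the means were -0.24 and -0.14.

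The other 9 members did not pass in control cells. Car9 ranged over 3.24 to 6.25 CPM (median 4.48) without and 5.09 to 8.38 CPM (median 5.59) with stretch, overlapping (log2 fold change 0.39, SE 0.129, adjusted p = 0.0739). It passed without unstretched control replicate 1 (0.51, adjusted p = 0.0151) and with DESeq2 (0.40, adjusted p = 0.0413). Its log2 ratio was 0.15 in code letter a and 0.70 in letter b, which includes stretched control replicate 5. Egln3 (-0.12, SE 0.0419, adjusted p = 0.0911) passed without unstretched control replicate 3 (adjusted p = 0.0479) and with the code letter as a term (adjusted p = 0.0317). P4ha1 (-0.085, SE 0.0292, adjusted p = 0.0798) passed without stretched control replicate 3 (adjusted p = 0.0422) and with DESeq2 (adjusted p = 0.0354). These were the members nearest the threshold. Hif1a did not pass (0.012, SE 0.0471, adjusted p = 0.920), with log2 ratios of 0.13 in letter a and -0.10 in letter b. For Ndrg1 (-0.065, SE 0.0486, adjusted p = 0.482) they were -0.17 and 0.032, and its stretched control libraries of letter a lay at 55.6 to 57.1 CPM and those of letter b at 64.9 to 68.7 CPM. Neither gene kept its sign between the letters. Egln1 (-0.036), Bnip3 (-0.035), Adm (0.063) and Ankrd37 (0.13) had log2 fold changes at adjusted p of 0.435 or more.

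The same stretch in knockdown cells gave 1 member that rose and 0 that fell, against 5.32% of all genes that rose and 3.61% that fell. At an unadjusted p under 0.05 there were 2 members, near the 22.3% of all genes. Adm ranged over 11.9 to 17.3 CPM (median 13.4) without and 16.4 to 18.9 CPM (median 18.0) with stretch. Of the 6 unstretched libraries only replicate 6, at 17.3 CPM, reached the range of the stretched ones. The mean was 26.9% higher (log2 fold change 0.35, SE 0.0750, adjusted p = 0.00364), and every fit without 1 library kept the call (0.30 to 0.41, adjusted p of 0.000291 to 0.0143). Within code letters a and b the log2 ratios were 0.45 and 0.25.

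Car9 was the nearest of the others. It ranged over 3.05 to 4.07 CPM (median 3.83) without and 4.21 to 5.48 CPM (median 4.91) with stretch in knockdown cells, with no overlap (log2 fold change 0.41, SE 0.132, adjusted p = 0.0511). It passed in 5 of the 24 fits without 1 library (unstretched control replicate 1, 4 or 6, stretched control replicate 5, or stretched knockdown replicate 2), with DESeq2 (adjusted p = 0.0277), with the stricter filter of 50 counts (adjusted p = 0.0487), with the code letter as a term (adjusted p = 0.0474) and with only the compared groups in the fit (adjusted p = 0.00703). Epas1 (0.10, SE 0.0563, adjusted p = 0.325) and Hif1a (0.032, SE 0.0472, adjusted p = 0.748) did not pass. Egln1 (-0.039), Egln3 (0.05), Bnip3 (-0.027), Ndrg1 (-0.016), Ankrd37 (0.10) and P4ha1 (-0.042) had log2 fold changes at adjusted p of 0.370 or more.

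Genes of the wider pathway were counted for stretch too. Over all genes 2.55% rose and 3.39% fell in control cells, and 5.32% rose and 3.61% fell in knockdown cells. Siah2 rose by 0.13 in control (SE 0.0324, adjusted p = 0.0147) and by 0.15 in knockdown cells (SE 0.0327, adjusted p = 0.00432), and Siah1b by 0.18 in both. With Ep300, which rose by 0.10 in knockdown cells (adjusted p = 0.0320), they made 2 and 3 of 16 partners that rose, with 0 that fell in either. Of the 36 further non-glycolytic targets 3 rose and 4 fell in control cells (8.33% and 11.1%). In knockdown cells 4 rose and 2 fell (11.1% and 5.56%). Wsb1, a substrate receptor of a ubiquitin ligase, rose by 0.28 (SE 0.0390, adjusted p = 7.69e-05) and 0.38 (SE 0.0385, adjusted p = 2.15e-07). In control cells Hmox1, heme oxygenase 1, rose by 0.18 (SE 0.0273, adjusted p = 0.000167) and Jmjd6 by 0.13 (SE 0.0310). In knockdown cells Kdm3a, a histone demethylase, rose by 0.15 (SE 0.0292, adjusted p = 0.00178) and Edn1, the endothelin-1 gene, by 0.41 (SE 0.122, adjusted p = 0.0337). Zfp395 fell by 0.27 and 0.20 (SE 0.0599 and 0.0600), Gys1, glycogen synthase, by 0.13 and 0.11 (SE 0.0344 and 0.0343), and Bhlhe40 by 0.12 in control cells (SE 0.0352). Of 20 glycolytic targets 3 (15%) fell and 0 rose in control cells, namely Slc16a3 by 0.16, Hk1 by 0.14 and Pfkl by 0.12. In knockdown cells 0 fell and 1 (5%) rose, Slc2a1, the main glucose transporter of many cells, by 0.17 (SE 0.0485, adjusted p = 0.0285).

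The last question was whether the stretch response differed between knockdown and control cells. No member passed this interaction test in edgeR, DESeq2 or limma-voom, and over all genes 0.0208% passed in edgeR. At an unadjusted p under 0.05 there were 3 of the 10 members, against 9.40% of all genes. Epas1 had the smallest p, with an interaction of 0.29 on the log2 scale (SE 0.0796, edgeR unadjusted p = 0.00116, adjusted p = 0.165). In control cells its mean went from 41.0 to 35.98 CPM with stretch, and in knockdown cells from 33.6 to 35.98 CPM. It passed without stretched control replicate 5 (0.33, adjusted p = 0.0357) and with the code letter as a term (0.29, adjusted p = 0.0460). Adm had an interaction of 0.28 (SE 0.106, edgeR unadjusted p = 0.0130, adjusted p = 0.381) and Egln3 of 0.17 (SE 0.0600, edgeR unadjusted p = 0.00918, adjusted p = 0.343). The rise of Adm in knockdown cells is therefore not shown to differ from its value in control cells, nor the knockdown effect on Epas1 between the stretch states. The interactions of Hif1a (0.021), Egln1 (-0.0038), Bnip3 (0.0084), Ndrg1 (0.049), Ankrd37 (-0.034), P4ha1 (0.043) and Car9 (0.022) had adjusted p of 0.808 or more. Comparisons that share a group, such as stretch in control cells and knockdown without stretch, are not independent.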

How the data were processed

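Poly(A) RNA of HL-1 cells was sequenced with a stranded kit in 24 libraries, 4 groups of 6 by their titles. The authors deposited estimated counts for 20351 protein-coding genes, of which 36.6% were whole (tolerance 1e-09). Build GRCm38.p6 and the tools kallisto 0.44.0, R 3.4.4 and DESeq2 1.18.1 are named in the submitters' processing notes. Neither the annotation nor the summary of transcripts per gene is given in the sources used here. The normalized signal that the authors also deposited served for a different scaling.

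After rounding, the estimated counts were fitted in R 4.3.3 by edgeR 4.0.16 with TMM factors. Genes were kept by filterByExpr with a minimum count of 10 and also a minimum total of 15. The quasi-likelihood fit had 1 coefficient per group over all libraries and 20 residual degrees of freedom. Benjamini-Hochberg adjustment was over 14411 genes, with a threshold of 0.05. The 60 replicate pairs differed by more than sampling noise (lowest chi-square per gene 2.85).

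The members and lists were chosen with earlier results of these data known. All 10 members are named in every comparison, and of each pathway list up to 3 genes per direction with the smallest adjusted p. Alternatives were DESeq2 1.42.0, its size factors, the authors' scaling, limma-voom (limma 3.58.1), no filter, a minimum count of 50, only the compared groups, a replicate block, the code letter as a term, and leaving out each library. Promoters are RefSeq's (GRCm38.p6), and gene positions and lengths are those of GENCODE vM21 (GRCm38).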

Additional observations from a re-analysis of the deposited data

Results flagged for a closer look

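In 5 of the 40 sets of 6 libraries (10 genes in 4 groups), 1 library stood apart from the other 5 by Dixon's test, which chance alone gives in about 1 in 20 sets. Stretched control replicate 5 did so for Hif1a, at 236 CPM against 286 to 305 CPM in the others, and for Car9, at 8.38 CPM against 5.09 to 6.08 CPM. Unstretched control replicate 1 was low for Epas1, at 36.9 CPM against 40.6 to 42.8 CPM, and unstretched control replicate 3 was low for P4ha1, at 144 CPM against 147 to 148 CPM. Stretched control replicate 2 was high for Bnip3, at 36.2 CPM against 32.2 to 33.7 CPM. The 40 sets share libraries across genes and are not independent, so their count is no test against 1 in 20.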

How the results depend on the processing

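The counts of members that fell with the knockdown changed little: 8 without stretch (7 to 8 under other settings, 8 to 9 without 1 library) and 6 with stretch (6 to 7 without 1 library). The counts for stretch changed more. In control cells the count of 1 became 3 with DESeq2, 2 with the replicate block or the code letter (both adding Egln3, adjusted p = 0.0470 and 0.0317), 0 with DESeq2's size factors, the authors' scaling, no filter, the stricter filter or only the compared groups, and 0 to 2 without 1 library. Epas1 had adjusted p of 0.0508 to 0.0906 in the 5 settings that lost it. In knockdown cells the count of 1 became 2 with DESeq2, the stricter filter, only the compared groups, the replicate block or the code letter, and 1 to 2 without 1 library, adding Car9 each time. The interaction count of 0 became 1 with the code letter and 0 to 1 without 1 library. The interaction of Bnip3 changed sign with no filter (-0.0098) and with the stricter filter (-0.00091). Without 1 library, signs changed for uncalled values only: stretch in control cells for Hif1a (-0.0069 to 0.061), stretch in knockdown cells for Bnip3 (-0.064 to 0.046) and Ndrg1 (-0.038 to 0.00065), knockdown with stretch for Epas1 (-0.029 to 0.041), and the interaction for Hif1a (-0.029 to 0.039), Egln1 (-0.026 to 0.0076), Bnip3 (-0.028 to 0.065), Ankrd37 (-0.15 to 0.087) and Car9 (-0.10 to 0.13). Over all genes the calls for stretch in control cells were 857, but 377 with only the compared groups, 566 with the authors' scaling and 568 to 2023 without 1 library, the most without stretched control replicate 5. For stretch in knockdown cells they were 1287 (856 to 1930 without 1 library), and for the interaction 3, but 122 with DESeq2, 45 with the code letter, 9 with the replicate block, 1 with the authors' scaling and 0 to 109 without 1 library. Replicate numbers were not taken to pair the samples, because 14 and not all of 36 same-numbered pairs correlated above 0.1 (-0.19 to 0.25). Still, 13 of 36 correlated best with their own number among the 6 candidates. Replicate numbers are nested in the code letters, so this count cannot tell a shared number from a shared letter. The replicate block gave 946, 1403, 8378 and 7567 calls over all genes for stretch in control and in knockdown cells and for knockdown without and with stretch. Ankrd37 and Car9 had the fewest counts per library and the largest spread within groups of the 10 members. The causes of these changes were not tested.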
